A study of Mus musculus with 4 samples.

Results

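Receptor tyrosine kinases are the cell-surface receptors through which growth factors such as EGF, HGF, FGFs, VEGFs and insulin act. The genes were taken by symbol, as all probe sets that the array annotation assigns to exactly 1 gene named Egfr, Erbb2 to Erbb4, Met, Mst1r, Insr, Igf1r, Insrr, Kit, Csf1r, Flt1, Flt3, Flt4, Kdr, Tek, Tie1, Axl, Tyro3, Mertk, Ddr1, Ddr2, Ret, Ros1, Alk, Ltk, Ror1, Ror2, Musk, Ptk7 or Ryk. Names that start with Pdgfr, with Ntrk or with Fgfr and a digit were added, as were Epha or Ephb followed by a number only. This gave 134 of 45037 probe sets and 54 of 18193 genes. The symbol rule also took in Fgfr1op2 and Pdgfrl, whose products are not receptor tyrosine kinases. They are counted with the members throughout, and values without them are given where they matter. The rule uses symbols and no measured value.

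The arrays compared non-tumorous liver of G9aKO mice (Alb-Cre; G9aflox/flox, 2 mice) with that of WT mice (Alb-Cre; G9a+/+, 2 mice), so that every mouse carried the Cre transgene. All were male mice of a C57BL/6-backcrossed strain, 30 weeks old, that had received DEN, a carcinogen that hepatocytes activate, at 15 days of age and then 22 weekly doses of the hepatotoxin CCl4. G9a (gene Ehmt2) is a histone H3 lysine 9 methyltransferase, and the albumin-driven Cre deletes it in hepatocytes, while endothelial cells, macrophages and stellate cells keep it. RNA of each liver was measured on 1 Affymetrix whole-genome mouse GeneChip array. Signals are on a linear scale that the authors' software set to a common trimmed mean of 500.0 per array, and each probe set has a call of Present, Marginal or Absent. Of the probe sets for Ehmt2, 1 read 174 and 164 in G9aKO livers, where it was Absent, against 640 and 492 in WT livers, where it was Present. The other was Absent on all 4 arrays, with overlapping groups.

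A receptor tyrosine kinase carries its ligand-binding part outside the cell and its kinase inside it. Ligand binding pairs the receptors, which then phosphorylate each other and recruit adaptors that switch on the RAS-ERK and PI3K-AKT cascades. In liver, EGFR, MET, the insulin receptor and FGFR4 are known from hepatocytes, VEGF receptors and TEK from endothelium, PDGF receptors and DDR2 from stellate cells, and CSF1R, MERTK and AXL from macrophages. Since the arrays read whole tissue, fewer cells of a type and less RNA per cell cannot be told apart in any value below.

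Of the 134 probe sets, 33 were Present on all 4 arrays, 9 on 2 or 3 arrays, 8 on 1 array and 84 on none. A gene entered the comparison at its brightest probe set Present on at least 2 arrays, which 27 of the 54 genes had. Of these, 23 had a probe set Present on all 4 arrays. None of the 27 passed limma's moderated test after Benjamini-Hochberg adjustment over the 10350 genes tested. The smallest adjusted p among them was 0.147, and 40 genes of all (0.386%) passed. At an unadjusted limma p under 0.05, 3 receptor genes were higher in G9aKO livers (11.1%), against 613 of all genes (5.92%), and 1 was lower (3.7%), against 424 of all genes (4.1%). With the t-test named in the study's methods, 2 of the 27 receptor genes had an unadjusted p under 0.05, against 855 of the 10350 genes. With that test 0 receptor genes and 0 of all genes passed adjustment. With 2 mice a group, an exact two-sided permutation test of a single gene cannot go below p = 0.33. The limma p-values rest on the spread between these few mice, with the variance of each gene drawn towards a trend over all genes tested.

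By direction alone, 20 of the 27 receptor genes (74.1%) had a log2 fold change (G9aKO over WT) above 0, against 5528 of all genes (53.4%). Their median log2 fold change was 0.14, against 0.02 for all genes, and the values ran from -0.70 for Epha7 to 1.02 for Ddr1. In 18 genes the change was smaller than 0.5 in size. Many of the receptor genes were highest in 1 animal, here called G9aKO mouse 1. In 13 receptor genes (48.1%) the highest of the 4 signals was that of G9aKO mouse 1, against 29.9% of all genes, and in 7 (25.9%) it was that of G9aKO mouse 2, against 23.6% of all genes. WT mouse 1 had the highest signal in 6, against 24.4% of all genes, and WT mouse 2 in 1, against 22.1% of all genes. Without G9aKO mouse 1 the receptor median was 0.04, and without G9aKO mouse 2 it was 0.31. Without WT mouse 2 it was 0.29. The gap between the G9aKO mice had a median of 0.43 on the log2 scale over the receptor genes and 0.22 over all genes, while that between the WT mice was 0.25 and 0.21. In 19 of the 27 genes the difference between the groups was smaller than the gap between the G9aKO mice, which held for 54% of all genes.

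**Figure D1:**
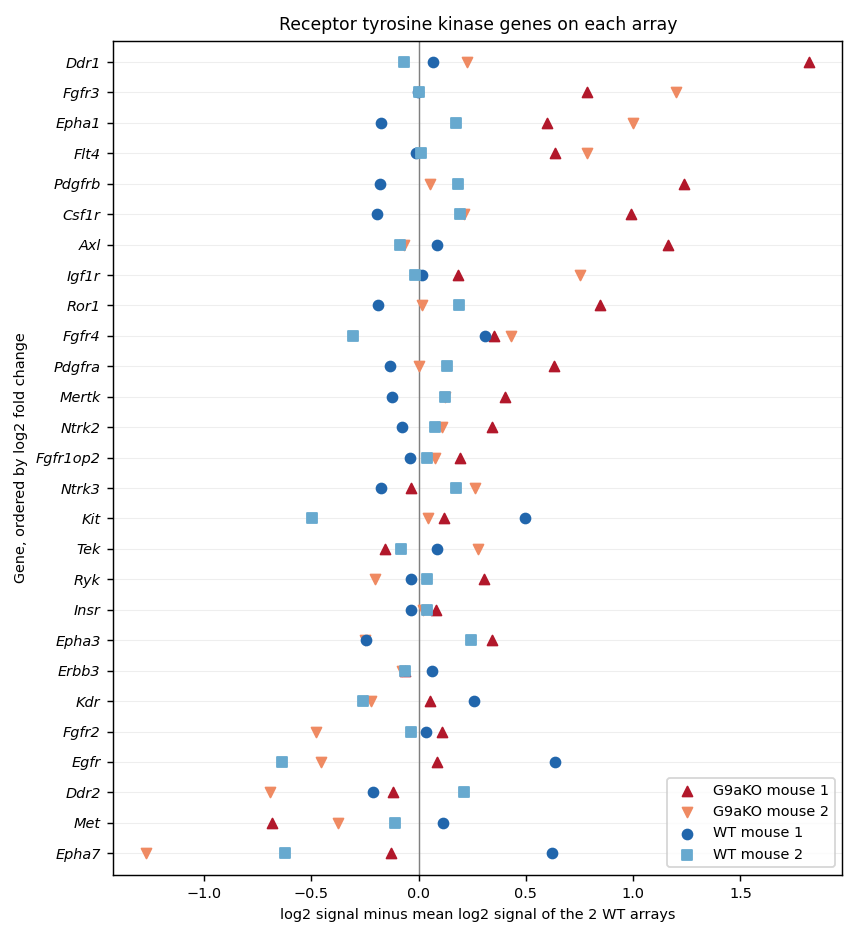
Signal of each tested receptor gene on each array, as the log2 difference from the mean of the WT arrays, with genes in rows and 1 point per mouse. Of 27 genes, 13 had their highest signal in G9aKO mouse 1 and 6 in WT mouse 1.

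Genes whose G9aKO signals both lay outside the WT signals, with a log2 fold change of at least 0.5 in size, numbered 5 higher (Fgfr3, Flt4, Epha1, Csf1r and Ddr1, 18.5% of the receptor genes), against 856 of all genes (8.27%). The only receptor gene lower by that measure was Met, against 367 of all genes (3.55%). Fgfr3, Flt4, Epha1 and Met are also the 4 with an unadjusted limma p under 0.05, and are described first.

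Fgfr3 encodes a receptor for fibroblast growth factors. Its signal was 1357 and 1806 in G9aKO livers, against 785 and 789 in WT livers. Both G9aKO values lay well above the WT values, which were nearly equal. The signal was 1.99-fold that of WT livers (log2 fold change 0.99, SE 0.18, limma adjusted p = 0.147), and the log2 fold change stayed between 0.79 and 1.20 when any 1 mouse was left out. Over all alternatives tried, the adjusted p ran from 0.0899 to 0.580. A second Fgfr3 probe set was Absent on all arrays, at 70.6 and 105 in G9aKO livers, against 60.6 and 66.0 in WT livers. The other FGF receptors that were measured lay closer together. Fgfr4, which hepatocytes use to sense the intestinal hormone FGF15, read 717 and 756 in G9aKO livers, against 695 and 453 in WT livers (log2 fold change 0.39), with the higher WT mouse just below the G9aKO mice. Fgfr2 gave a log2 fold change of -0.18, with overlapping groups, and Fgfr1 was Present on no array.

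Flt4 encodes VEGFR3, the receptor for VEGF-C and VEGF-D that is known from lymphatic and sinusoidal endothelium. Its signal was 1533 and 1704 in G9aKO livers, against 980 and 997 in WT livers. The groups were far apart relative to the gap within each, at 1.64-fold (log2 fold change 0.71, SE 0.14, limma adjusted p = 0.173), with 0.63 to 0.79 when any 1 mouse was left out. Over all alternatives the adjusted p ran from 0.163 to 0.542. A second, dimmer Flt4 probe set read 199 and 224 in G9aKO livers, against 111 and 99.9 in WT livers (log2 fold change 1.01, SE 0.29, limma adjusted p = 0.376 over probe sets). So both Flt4 probe sets separated the groups in the same direction. The 2 other endothelial receptors measured gave values with overlapping groups. Kdr, which encodes VEGFR2, read 911 and 752 in G9aKO livers, against 1051 and 733 in WT livers (log2 fold change -0.08), and Tek, the angiopoietin receptor, read 442 and 597 in G9aKO livers, against 523 and 466 in WT livers (0.06). Flt1 and Tie1 were Present on no array. The endothelial markers did not move as 1 list. Of 9 tested, 5 were above 0, and their summed signal was 10486 and 9528 in G9aKO livers, against 11572 and 9764 in WT livers. The lymphatic and sinusoidal marker Lyve1 was among the lower ones, at 759 and 550 in G9aKO livers, against 1025 and 1639 in WT livers (0.499-fold, limma adjusted p = 0.320). Lyve1 was picked out after its values were seen.

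Epha1 encodes an Eph receptor, a class that binds membrane-bound ephrins and acts in contact between cells. It read 364 and 481 in G9aKO livers, against 213 and 271 in WT livers. The groups did not overlap, but the gap within each was sizeable, and the 1.74-fold difference had a log2 fold change of 0.80 (SE 0.25, limma adjusted p = 0.384). It was at least 0.60 when any 1 mouse was left out, and over all alternatives the adjusted p ran from 0.360 to 0.789. Other Epha1 probe sets were Absent on all arrays. Of these, 1 read 87.7 and 119 in G9aKO livers, against 8.38 and 28.8 in WT livers. Another read 59.9 and 65.4 in G9aKO livers, against 59.4 and 85.2 in WT livers, with overlap. The other tested Eph receptors, Epha3 and Epha7, gave log2 fold changes of 0.05 and -0.70 with overlapping groups and low signals, and Epha7 was Present on 2 of the 4 arrays.

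Met encodes the receptor for hepatocyte growth factor, which drives hepatocyte survival and liver regeneration. Its signal was 1576 and 1948 in G9aKO livers, against 2733 and 2342 in WT livers. Both G9aKO values lay below both WT values, at 0.692-fold (log2 fold change -0.53, SE 0.16, limma adjusted p = 0.379), and the log2 fold change stayed between -0.68 and -0.38 when any 1 mouse was left out. Over the alternatives, adjusted p-values ran from 0.243 to 0.789. Hgf, the gene of its ligand, was close to the detection limit, at 117 and 77.0 in G9aKO livers, against 166 and 139 in WT livers, and was Present on 1 array of each group. A second Met probe set, Present on no array, read 108 and 55.8 in G9aKO livers, against 140 and 142 in WT livers. Mst1r, the related receptor for macrophage-stimulating protein, was Present on no array.

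**Figure D2:**
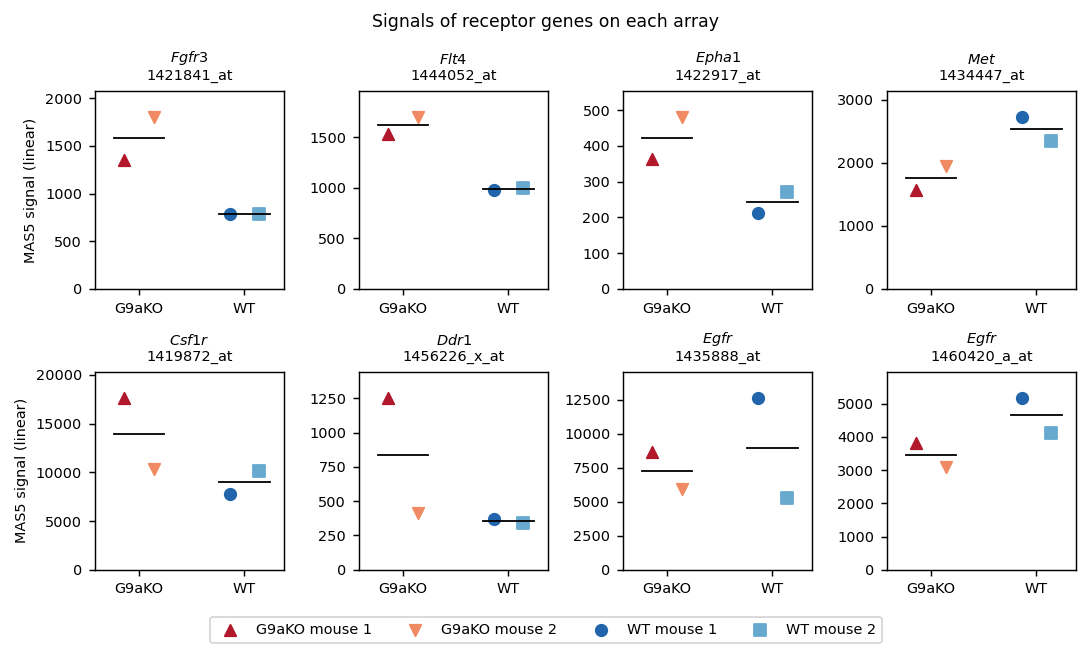
MAS5 signal on a linear axis of Fgfr3, Flt4, Epha1, Met, Csf1r, Ddr1 and 2 probe sets of Egfr, with points for single mice, lines for group means and G9aKO left of WT. Fgfr3, Flt4 and Epha1 lie higher and Met lower in both G9aKO mice than in either WT mouse, and Csf1r (17673) and Ddr1 (1257) are highest in G9aKO mouse 1.

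The promoters of these 4 genes are shown because they are the receptor genes whose difference held the same direction in every mouse left out and had an unadjusted limma p under 0.05. Each line gives the 150 bases before a transcript start of the RefSeq promoter table on GRCm38.p6, the most upstream one listed for the gene, 5′ to 3′ along the gene, and capitals mark a GC box (GGGCGG or its complement CCGCCC), the motif that SP1-type factors bind.
Fgfr3, chr5:33721574-33721723, plus strand: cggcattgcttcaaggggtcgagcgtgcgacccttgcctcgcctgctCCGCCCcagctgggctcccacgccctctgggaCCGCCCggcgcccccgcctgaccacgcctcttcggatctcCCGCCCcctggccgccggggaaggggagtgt
Flt4, chr11:49609529-49609678, plus strand: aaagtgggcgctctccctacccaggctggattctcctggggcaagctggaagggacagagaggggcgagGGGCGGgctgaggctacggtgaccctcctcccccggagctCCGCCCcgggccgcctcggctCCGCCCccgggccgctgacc
Epha1, chr6:42373269-42373418, minus strand: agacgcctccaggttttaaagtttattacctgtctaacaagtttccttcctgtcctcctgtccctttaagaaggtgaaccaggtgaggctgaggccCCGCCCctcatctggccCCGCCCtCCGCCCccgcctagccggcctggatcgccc
Met, chr6:17463807-17463956, plus strand: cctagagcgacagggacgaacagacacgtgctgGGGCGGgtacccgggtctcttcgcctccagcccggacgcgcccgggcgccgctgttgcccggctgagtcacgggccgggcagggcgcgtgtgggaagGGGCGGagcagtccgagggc
Fgfr3, Flt4 and Epha1 each held 3 GC boxes in this window and Met held 2. For Fgfr3 and Flt4 that start is also the outer boundary of the RefSeq gene. For Epha1 it lies 46 bases and for Met 608 bases inside the boundary, so that their windows lie partly or wholly within the annotated gene. None of the windows held the motif TATAAA on either strand. A GC box was found in 29% of 27025 mouse promoters of the same length, and TATAAA in 8.08%. The count of CpG dinucleotides was 16 for Fgfr3, 12 for Flt4, 7 for Epha1 and 19 for Met, against a median of 4 over all promoters. Such windows were not particular to the genes that differed: of the tested receptor genes, 16 of 22 with a promoter entry held a GC box (median of 11 CpG), and of the receptor genes that were not tested, 15 of 23 did (median of 10 CpG). A match of letters is a description of the window and shows no binding.

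The EGF receptor family gave results that differed by probe set. Egfr is the main receptor for EGF and TGF-alpha on hepatocytes. At its brightest probe set it read 8656 and 5947 in G9aKO livers, against 12670 and 5245 in WT livers (log2 fold change -0.18, SE 0.41, limma adjusted p = 0.915). The WT mice alone spanned more than the G9aKO mice, so this probe set showed no separation. Another Egfr probe set read 3815 and 3089 in G9aKO livers, against 5182 and 4112 in WT livers (log2 fold change -0.43, SE 0.17, adjusted p = 0.517 over probe sets). A further one read 3027 and 2281 in G9aKO livers, against 4621 and 3080 in WT livers (-0.52, SE 0.23, adjusted p = 0.549), and a dim one 208 and 161 in G9aKO livers, against 354 and 223 in WT livers (-0.62, adjusted p = 0.599). These 3 were lower in both G9aKO livers than in either WT liver, and none passed adjustment. The fifth tested Egfr probe set, also dim, read 176 and 200 in G9aKO livers, against 194 and 200 in WT livers (-0.07), with overlap. Erbb3, a family member with little kinase activity of its own, was nearly level at 4237 and 4203 in G9aKO livers, against 4626 and 4248 in WT livers (log2 fold change -0.07). Erbb2 and Erbb4 were Present on no array.

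In the insulin receptor family, Insr was nearly level and Igf1r was somewhat higher in G9aKO livers, and neither passed adjustment. Insr read 3460 and 3325 in G9aKO livers, against 3192 and 3361 in WT livers (log2 fold change 0.05), one of the smallest changes of the receptor genes. Igf1r, the receptor for IGF1, is known to be low in adult hepatocytes. It read 170 and 252 in G9aKO livers, against 151 and 148 in WT livers (log2 fold change 0.47, limma adjusted p = 0.663). The groups did not overlap, but signals were near the 95% quantile of Absent probe sets. An untested Igf1r probe set, Present in G9aKO mouse 1 only, read 320 and 201 in G9aKO livers, against 183 and 167 in WT livers. Another such probe set read 79.7 and 69.1 in G9aKO livers, against 63.5 and 61.9 in WT livers. The remaining Igf1r probe sets were Absent on all arrays, with overlapping groups. Insrr was Present on no array.

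**Figure D3:**
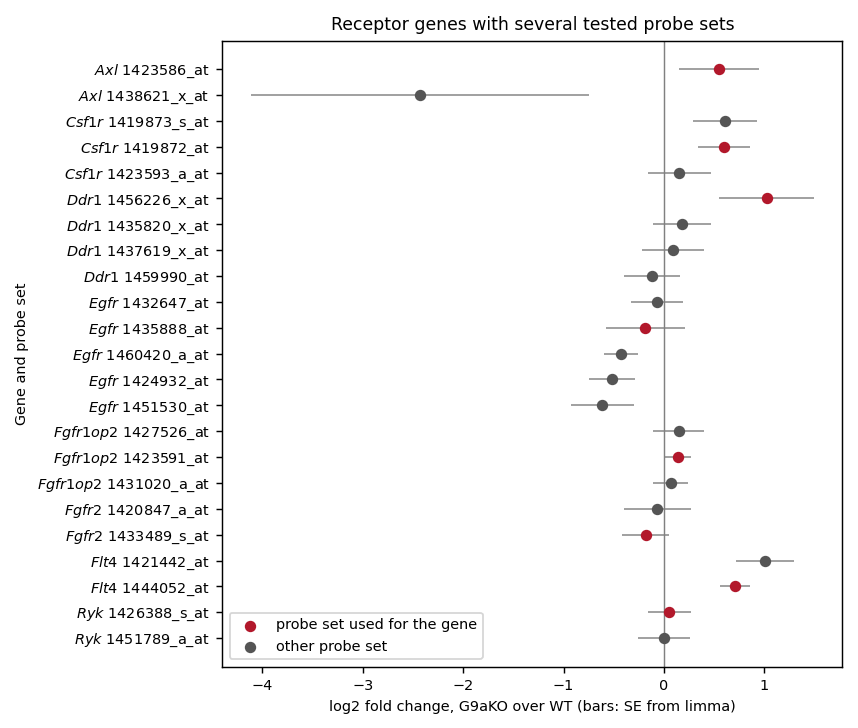
Log2 fold change (G9aKO over WT) of each tested receptor probe set, for genes with several such probe sets. The Egfr probe sets lie between -0.62 and -0.07, both Flt4 probe sets lie above 0, and the outlying Axl probe set is at -2.43.

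Among receptors known from macrophages, stellate cells and fibroblasts, Csf1r, Mertk, Axl, Pdgfrb and Pdgfra were each highest in G9aKO mouse 1. Csf1r, the receptor through which CSF1 and IL34 keep macrophages alive, read 17673 and 10293 in G9aKO livers, against 7774 and 10170 in WT livers. G9aKO mouse 2 lay just above the higher WT mouse, so the groups did not overlap only narrowly (log2 fold change 0.60, SE 0.27, limma adjusted p = 0.535). Without G9aKO mouse 1 the log2 fold change was 0.21. A second Csf1r probe set read 3835 and 1863 in G9aKO livers, against 1620 and 1901 in WT livers (0.61), and another 1645 and 822 in G9aKO livers, against 1021 and 1075 in WT livers (0.15), so that the groups overlapped at both. Mertk, which serves macrophages in the uptake of dying cells, read 1531 and 1259 in G9aKO livers, against 1062 and 1261 in WT livers (log2 fold change 0.26). Axl, of the same family, read 609 and 259 in G9aKO livers, against 289 and 256 in WT livers (0.55), and without G9aKO mouse 1 it was at -0.07. The second tested Axl probe set, whose suffix marks probes that may match other transcripts, read 1.59 and 59.9 in G9aKO livers, against 50.8 and 54.5 in WT livers.

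Pdgfrb, the PDGF receptor of stellate cells and pericytes, read 756 and 333 in G9aKO livers, against 283 and 364 in WT livers (log2 fold change 0.64, SE 0.40, limma adjusted p = 0.647), and 0.05 without G9aKO mouse 1. Pdgfra, found on fibroblasts, read 588 and 380 in G9aKO livers, against 345 and 416 in WT livers (0.32). Only G9aKO mouse 1 stood above the others in both. Ddr2, a receptor for fibrillar collagen on stellate cells, ran the other way, at 233 and 157 in G9aKO livers, against 219 and 293 in WT livers (-0.41), with overlap. Kit, the receptor for stem cell factor, read 177 and 167 in G9aKO livers, against 229 and 115 in WT livers (0.08) and was Present on 1 array of each group. The 4 mast cell markers examined beside it were Absent on all arrays.

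The largest fold change of all receptor genes, that of Ddr1, rested on the same animal. Ddr1 encodes a collagen receptor found mostly on epithelia. At its brightest probe set, which by its suffix may share probes with other transcripts, it read 1257 and 416 in G9aKO livers, against 373 and 339 in WT livers. The signal in G9aKO mouse 1 was far above the other 3 (log2 fold change 1.02, SE 0.49, limma adjusted p = 0.554). Without G9aKO mouse 2 the log2 fold change was 1.82 and passed the test (limma adjusted p = 0.0297), with a lone G9aKO sample assumed to vary like the WT pair, and without G9aKO mouse 1 it was 0.23. No other receptor gene passed in either direction with any mouse left out. Other tested Ddr1 probe sets gave log2 fold changes of 0.18, 0.09 and -0.12, with overlapping groups. Ddr1 lies on chromosome 17, and its start is 0.783 Mb from that of Ehmt2 on GRCm38.p6. Whether the alleles differ around the deleted gene was not tested.

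Markers of some other cell types, though not of all, moved with the signals of G9aKO mouse 1. All 8 tested Kupffer cell and macrophage markers had a log2 fold change above 0 and were highest in that mouse, with a summed signal of 44448 and 29811 in G9aKO livers, against 20118 and 31985 in WT livers. All 8 tested stellate cell and fibroblast markers did the same, with sums of 21310 and 13590 in G9aKO livers, against 11560 and 16220 in WT livers. In both sums WT mouse 1 was lowest and WT mouse 2 lay above G9aKO mouse 2. The brightest stellate marker, Dcn, had that order too, at 12203 and 8238 in G9aKO livers, against 6761 and 11124 in WT livers. In 6 of the 8 stellate markers both G9aKO mice lay above both WT mice, as in 2 of the 8 macrophage markers. Acta2, with the smallest p, read 531 and 405 in G9aKO livers, against 201 and 232 in WT livers (limma adjusted p = 0.198). Relative to the WT mean, the median macrophage marker was at 0.69 in G9aKO mouse 1 and 0.23 in G9aKO mouse 2, and the median stellate marker at 0.72 and 0.18. The tested genes of the PDGF, KIT and CSF1 receptor class had medians of 0.81 and 0.05 in the same mice, and the TAM receptors Axl and Mertk 0.78 and 0.03. The FGF receptors stood at 0.35 and 0.43 (3 tested genes) and the VEGF receptors at 0.34 and 0.28 (2 tested genes). Not every gene of these families was higher, as Fgfr2 and Kdr had log2 fold changes of -0.18 and -0.08. Hepatocyte markers were close to level, with sums of 440104 and 400820 in G9aKO livers, against 446918 and 422117 in WT livers. The cholangiocyte markers Krt19, Krt7, Epcam and Cftr did not pass the detection filter. The single one that did, Sox9, read 260 and 149 in G9aKO livers, against 173 and 83.9 in WT livers (log2 fold change 0.71), highest in G9aKO mouse 1 and with overlapping groups. The tested dendritic and myeloid markers, Itgax and Ccr2, were also highest in that mouse, and their groups did not overlap. Their summed signal was 502 and 220.4 in G9aKO livers, against 130.3 and 114 in WT livers. Itgax alone read 163 and 145 in G9aKO livers, against 64.0 and 73.4 in WT livers, where it was Absent. Ccr2 read 339 and 75.8 in G9aKO livers, against 66.3 and 40.4 in WT livers. Of the 9 tested endothelial markers, 4 were highest in G9aKO mouse 1, against 29.9% of all genes. The single tested T and NK cell marker, Cd8a, had a log2 fold change of -0.46, with overlapping groups. It read 99.2 and 117 in G9aKO livers, against 223 and 99.3 in WT livers, so that only WT mouse 1 stood apart. The part of these markers in the receptor values was not tested.

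**Figure D4:**
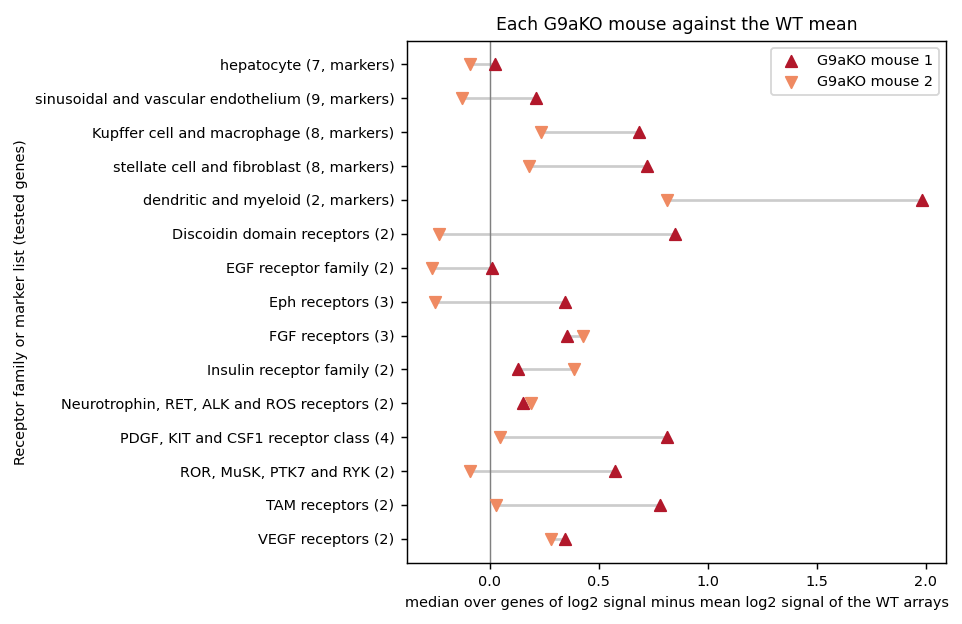
Median log2 difference from the WT mean of receptor families and marker lists, shown apart for G9aKO mouse 1 and G9aKO mouse 2. The PDGF, KIT and CSF1 receptor class, the TAM receptors and the macrophage and stellate markers are higher in G9aKO mouse 1 (0.69 to 0.81) than in G9aKO mouse 2 (0.03 to 0.23).

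Of the other tested genes, Ntrk2 and Ntrk3, which encode neurotrophin receptors, gave log2 fold changes of 0.23 and 0.11, and Ror1 and Ryk, which bind WNT proteins, 0.43 and 0.05, none with an unadjusted limma p under 0.05. Fgfr1op2 was at 0.14. Without Fgfr1op2 and Pdgfrl, the median of the 26 remaining receptor genes was 0.17.

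The 27 genes that were not tested were Epha2, Epha5 and Pdgfrl, Present on 1 array each, and 24 Present on none. Pdgfrl was Present in 1 G9aKO liver and in no WT liver, at 97.5 and 100.3 in G9aKO livers, against 69.9 and 56.0 in WT livers (ratio 1.58). On every array its signal lay under the 95% quantile of Absent signals (170 to 181 by array), so the ratio sets no minimum for the difference. Epha5 read 20.1 and 66.6 in G9aKO livers, against 17.9 and 49.1 in WT livers, and the groups overlapped. Of the 84 receptor probe sets Absent or Marginal everywhere, 78 lay below the 95% quantile of the Absent signals of their array on all 4 arrays. Of the 24 genes Present on no array, 21 had only such probe sets, Erbb2, Mst1r and Tyro3 among them, and differences in these were not detectable here. Fgfr1, Flt1 and Ephb4 each had a probe set above that quantile on at least 1 array, still without a Present call. The 2 such Flt1 probe sets, picked after their values were seen, read 144 and 161 in G9aKO livers, against 194 and 206 in WT livers, and at most 29.1 in G9aKO livers, against 161 and 187 in WT livers.

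The genes around the receptors were then read from the same fit. Of 55 ligand genes on the array, 26 were tested. Of these, 16 had a log2 fold change above 0 (median 0.22), 0 passed limma's adjusted test, and 4 were higher and 0 lower at an unadjusted limma p under 0.05. Over all genes, 53.4% were above 0, 5.92% higher and 4.1% lower by the same rules. Relative to the WT mean, the median ligand gene was at 0.34 in G9aKO mouse 1 and 0.07 in G9aKO mouse 2. Kitl, the stem cell factor that binds KIT, read 792 and 803 in G9aKO livers, against 481 and 377 in WT livers (log2 fold change 0.90, SE 0.19, limma adjusted p = 0.191). Vegfd, a ligand of VEGFR3, read 391 and 350 in G9aKO livers, against 222 and 193 in WT livers (0.84, SE 0.22). Efnb2, an ephrin that marks arterial endothelium, read 296 and 283 in G9aKO livers, against 187 and 167 in WT livers (0.71, adjusted p = 0.413). In each the mice of a group were close together and the groups apart. Vegfc, the other VEGFR3 ligand and one picked after its values were seen, was on the opposite side, at 270 and 182 in G9aKO livers, against 418 and 293 in WT livers (-0.66, adjusted p = 0.543).

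Of 37 co-receptor, adaptor and feedback inhibitor genes on the array, 30 were tested, with 21 above 0 and a median of 0.07. None passed limma's adjusted test, and 2 were higher and 1 lower at an unadjusted limma p under 0.05, against 53.4% above 0, 5.92% higher and 4.1% lower over all genes. Relative to the WT mean, the median gene of this list was at 0.17 in G9aKO mouse 1 and 0.03 in G9aKO mouse 2. Nrp2, a co-receptor of VEGFR3 for VEGF-C and VEGF-D, read 703 and 665 in G9aKO livers, against 382 and 356 in WT livers (log2 fold change 0.89, SE 0.17, limma adjusted p = 0.163). Its relative Nrp1, a co-receptor of VEGFR2, read 3580 and 3400 in G9aKO livers, against 2304 and 2867 in WT livers (0.44, adjusted p = 0.421). Klb, the co-receptor that FGFR4 needs for FGF15, was lower, at 1056 and 1278 in G9aKO livers, against 1651 and 1599 in WT livers (-0.48, SE 0.16, adjusted p = 0.397).

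Of 14 genes known as transcriptional targets of ERK signalling, 10 were tested. Of these, 8 had a log2 fold change above 0 and the median was 0.38, against 53.4% above 0 and a median of 0.02 over all genes. Relative to the WT mean, the median ERK target was at 0.71 in G9aKO mouse 1 and 0.21 in G9aKO mouse 2. In 7 of the 10 the signal was highest in G9aKO mouse 1, against 29.9% of all genes. Only Ccnd1, which encodes the G1 cyclin D1, passed the test: it rose to 1525 and 1270 in G9aKO livers, against 477 and 502 in WT livers (log2 fold change 1.51, SE 0.17, limma adjusted p = 0.0361), as did 0.386% of all genes. The call was lost with no detection filter (adjusted p = 0.055), with signals under 100 raised to 100 (0.289), with limma without a trend (0.167) and with the methods' t-test after adjustment (0.496). It was also lost without WT mouse 1 (0.206), WT mouse 2 (0.154) or G9aKO mouse 1 (0.0823), and its log2 fold change ran from 1.38 to 1.93 over all alternatives. Egr1, an immediate early gene named here after its values were seen, read 3170 and 1345 in G9aKO livers, against 384 and 456 in WT livers (2.30, SE 0.39, adjusted p = 0.117). Dusp6, a phosphatase that ERK induces to limit itself, was likewise named after its values were seen and read 1937 and 1581 in G9aKO livers, against 1440 and 1211 in WT livers (0.41). The arrays measure RNA and give no value for receptor or ERK phosphorylation.

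**Figure D5:**
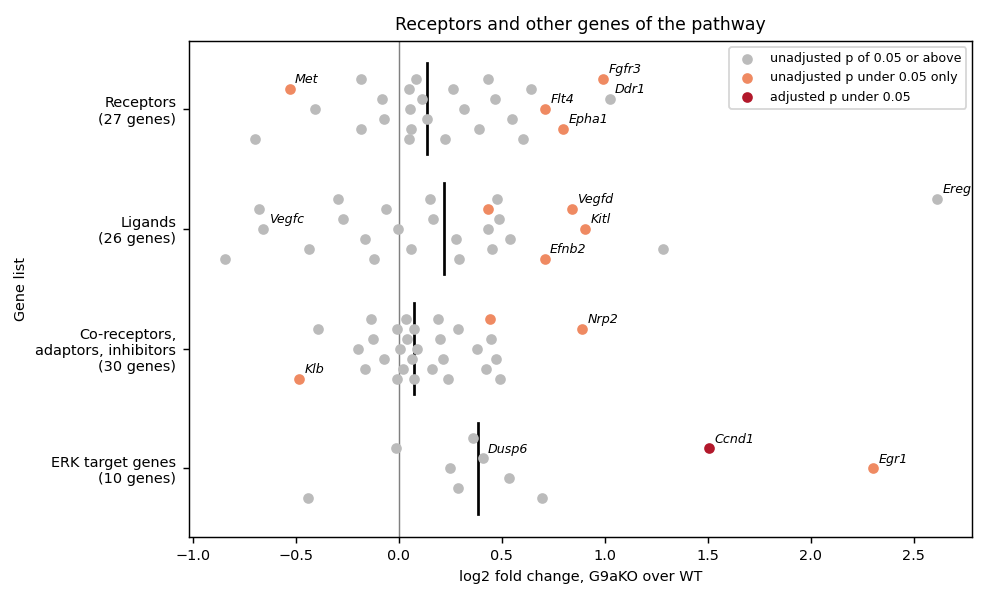
Log2 fold change (G9aKO over WT) of each tested receptor, ligand, co-receptor or adaptor and ERK target gene, with the median of each list. Medians are 0.14, 0.22, 0.07 and 0.38, and Ccnd1 is the single gene that passed the adjusted test.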

How the data were processed

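RNA of non-tumorous liver from 2 G9aKO and 2 WT mice was measured on 1 array each. Groups came from the labels. The receptor genes and lists were chosen with earlier results of these data known. The authors processed the arrays with MAS5 (version: not given in the sources used here). Values as deposited are linear intensities with a Present, Marginal or Absent call, and the authors' software gave a detection p-value for each probe set. Per the labels and methods, no array test is named. The second deposited table of intensities matched the first within a relative difference of 5e-06.

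After removal of 64 control probe sets, 34945 named 1 gene, 932 several and 9160 none. Log2 signals of 10350 genes were compared with limma 3.58.1 in R 4.3.3 (lmFit, eBayes with trend, no pseudocount, 2 residual and 4.02 prior degrees of freedom), each gene at its brightest probe set Present on at least 2 arrays, with Benjamini-Hochberg adjustment at 0.05. The fit was tested on simulated data. Values by mouse are given for receptors with non-overlapping groups and a log2 fold change of at least 0.5 in size, for those with an unadjusted limma p under 0.05, and for receptors known from a liver cell type, and in other lists for genes past the adjusted test or else the 3 with the smallest p. All 54 receptor genes matched RefSeq by Entrez identifier, and promoters are RefSeq's (GRCm38.p6). Alternatives covered centring, quantile normalization, filters, a floor, probe set summaries, the methods' t-test and each mouse left out. Few arrays limit the precision.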

Additional observations from a re-analysis of the deposited data

How the results depend on the processing

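No receptor gene passed the adjusted test under any setting tried, except that leaving out each mouse gave 0 to 1 higher (Ddr1). The count of all genes called, 40 as reported (1037 at an unadjusted limma p under 0.05), was 15 with no detection filter, 26 with Present calls required on all 4 arrays, 0 with signals under 100 raised to 100 (1135 unadjusted), 0 with limma without a trend (963) and 0 with the methods' t-test (855). It ran from 8 to 71 with each mouse left out. The receptor median, 0.14 as reported, ran from 0.0427 to 0.31 with each mouse left out. It was 0.0727 with arrays centred on their medians, 0.21 with no detection filter and 0.26 with Present calls required on all 4 arrays. Directions turned for Insr (-0.0127) and Tek (-0.0047) when arrays were centred on their medians, for Tek (-0.0274) and Kit (-0.0818) with quantile normalization, all near 0 as reported, and for Axl, at 0.55 as reported, which was at -0.94 with the mean of its probe sets. With each mouse left out, log2 fold changes ran from -0.82 to 0.45 for Egfr, -0.34 to 0.18 for Kdr, -0.16 to 0.27 for Tek, -0.42 to 0.58 for Kit and -0.0679 to 1.16 for Axl. The causes were not tested. No paired analysis was possible because the labels give no replicate numbers. Signals under the 95% quantile of Absent probe sets (170 to 181 by array) limit what dim receptors can show.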
